A study of Homo sapiens with 8 samples.

Results

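The cytosolic ribosomal protein genes were followed through RNA-seq libraries of a pair of breast epithelial cell lines with and without overexpression of the lncRNA *MALINC1*. A gene was counted as a member when its symbol was RPL, RPS or RPLP followed by a number and, in some cases, the letter A or X, and when its name did not mark it as a pseudogene. This gave 76 of the 13842 genes of the expression table, 46 of the large and 30 of the small ribosomal subunit. The rule used names alone and no measured value. It leaves out, among others, *RPSA*, *FAU* and *RACK1*, which encode proteins of the ribosome under other names and are described separately, together with the 78 genes of the mitochondrial ribosome.

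MCF10A is a line of normal breast epithelium, and DCIS.COM, also called MCF10 DCIS.COM, is a ductal carcinoma in situ line. Both were stably transduced with the lentiviral vector pLOC-empty or with pLOC-*MALINC1*, which carries the full-length lncRNA, and selected with blasticidin, so that the controls had also been through transduction and selection. With 2 libraries in each of the 4 groups there were 8 libraries, made from total RNA of subconfluent plates. The labels do not say whether the replicates were separate cultures or whether the transduced cells were clones, so p-values measure the spread between these libraries, which may be technical. Both were grown with horse serum, to which epidermal growth factor, hydrocortisone, insulin and cholera toxin were added for MCF10A and not for DCIS.COM, so line and medium cannot be told apart.

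A ribosome joins a large and a small subunit, each built in the nucleolus from ribosomal RNA and from proteins made in about equal numbers. Most mRNAs of these proteins begin with a C followed by a run of pyrimidines, the 5-prime terminal oligopyrimidine (TOP) tract, through which the kinase mTOR and the RNA-binding protein LARP1 set how strongly they are translated and how long they last. The factors that assemble ribosomes, and RNA polymerase I, which makes the ribosomal RNA, are mostly encoded by mRNAs without such a tract and are known targets of the transcription factor MYC.

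The start of the listed transcript was read for the members and for genes of the same pathway, because the TOP tract is the sequence feature that the members are best known for. Promoter sequences of RefSeq (GRCh38.p14) were matched for 61 of the 76 members. At the listed start, 45 of these 61 (73.8%) had a C followed by at least 4 bases that were C or T, read on the gene's own strand, against 7.28% of the 10704 genes of the table with a matched sequence. The 39 matched ribosome biogenesis factors had it in 10.3% and the 70 matched mitochondrial ribosomal protein genes in 8.57%. In a list of translation factors and other genes known for TOP mRNAs, the 13 matched had it in 92.3%. That list was chosen for this feature, so its share is no separate check. A listed start is an annotation and was not measured here. Each sequence below covers 15 bases before the start and 15 from it on, 5′ to 3′, with the pyrimidine run in capitals where it holds at least 5 bases. The members shown are among those that moved most in a comparison, with *RPL26*, which had the smallest difference between the lines' responses to *MALINC1*, and *RACK1* and *EEF2* stand beside them as genes with a run and *NOP56* and *POLR1B* as genes without.
RPL22, chr1:6199581-6199610, minus strand: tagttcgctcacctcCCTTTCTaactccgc
RPS12, chr6:132814554-132814583, plus strand: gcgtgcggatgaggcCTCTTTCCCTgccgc
RPS13, chr11:17077653-17077682, minus strand: ttccactctcgctctCCTTTCgttgcctga
RPS16, chr19:39435935-39435964, minus strand: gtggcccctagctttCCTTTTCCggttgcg
RPS19, chr19:41860240-41860269, plus strand: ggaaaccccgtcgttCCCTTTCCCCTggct
RPS21, chr20:62387088-62387117, plus strand: ggtgactagctgcttCCTTTCTCTCTCgcg
RPLP2, chr11:809952-809981, plus strand: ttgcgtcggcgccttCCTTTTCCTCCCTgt
RPL35A, chr3:197950175-197950204, plus strand: cggcggggcctcgtcCTTCTCTTaccgcca
RPL26, chr17:8383179-8383208, minus strand: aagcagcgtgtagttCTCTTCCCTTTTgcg
RPL3, chr22:39319609-39319638, minus strand: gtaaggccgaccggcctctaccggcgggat
RPS29, chr14:49598696-49598725, minus strand: ccccgagcgcgcagctggcagcggtggttg
RPL27, chr17:42998404-42998433, plus strand: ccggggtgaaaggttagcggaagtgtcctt
RACK1, chr5:181243892-181243921, minus strand: ggggggcttttctctCTCTCTTTCactgca
EEF2, chr19:3985449-3985478, minus strand: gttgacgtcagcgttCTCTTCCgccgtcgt
NOP56, chr20:2652617-2652646, plus strand: gagcgcgctagccgcattgcgagccgaacc
POLR1B, chr2:112542021-112542050, plus strand: tttcgttgaagcaacgactttggccggatg

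The run of *RPLP2* is 13 bases long and that of *RPS21* 12, while the run of *RPL3* stops after 4 bases and the listed starts of *RPS29* and *RPL27* are not a C. A further motif, CGGAAG on either strand of the 250 bases before and 50 after the start, was present in 63.9% of the members and in 37.7% of all matched genes. TATAAA, searched the same way, was in 8.20% of the members and in 9.03% of all matched genes. These are matches of letters within a fixed window.

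The libraries held 20604377 to 37550457 reads on genes. Values are CPM, read counts scaled to 1000000 reads of a normalized library, from the deposited log2 table, as mean ± SD (n = 2 libraries per group), and a gene was called changed at an adjusted p below 0.01 in limma, at any fold change, since abundant genes such as these are measured with small error. The standard error of a log2 fold change had a median of 0.034 over the members and of 0.073 over all genes. *MALINC1* rose from 1.32 ± 0.357 to 12.6 ± 1.05 CPM in MCF10A and from 1.32 ± 0.146 to 21.9 ± 3.76 CPM in DCIS.COM. The 9 basal epithelial markers were all in the table and moved with *MALINC1* in MCF10A, where they summed to 29276 and 29291 CPM with pLOC-empty and to 37883 and 39103 CPM with pLOC-*MALINC1*, with 8 of 9 called higher and a median log2 fold change of 0.51. In DCIS.COM they summed to 4977 to 5025 CPM and to 5279 to 5316 CPM, with 3 called higher and 3 lower. Of all genes 21.5% were called higher in MCF10A, and 16.4% higher and 16.7% lower in DCIS.COM. The sums hide a split between the lines. With pLOC-empty, 6 of these markers were called lower in DCIS.COM than in MCF10A and 3 higher, *TP63*, *EPCAM* and *ITGB4*. The part of the 9 markers in the members' changes was not tested. Of 6 luminal markers 5 were in the table, summing to 1287 to 3498 CPM. Of 16 fibroblast, leukocyte and endothelial markers only *COL1A1*, *CD68* and *PECAM1* were, none above 15.9 CPM. By a chi-square of read counts, the replicates with pLOC-*MALINC1* in DCIS.COM differed most, with 20.6 per degree of freedom against 3.30 to 6.34 in the other groups. For a typical gene they did not, as the median absolute log2 gap was 0.071 over all genes, against 0.068 to 0.077 in the other groups. Their Pearson correlation across genes was 0.9969, against 0.9959 to 0.9967.

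All 76 members passed the filter on low values in every group. In any library a member had between 177.9 and 2741 CPM and at least 4330 reads, so that counting error was at most 1.52% of a value. Summed, the members took 5.08% and 5.14% of the reads of the MCF10A pLOC-empty libraries and 5.47% of each MCF10A pLOC-*MALINC1* library. In DCIS.COM they took 6.36% and 6.44% with pLOC-empty and 5.99% and 6.29% with pLOC-*MALINC1*. The groups did not overlap in either line, and the vectors lay in opposite order, with the *MALINC1* libraries on top in MCF10A and at the bottom in DCIS.COM. Groups of 2 against 2 allow no p below 0.333 in a two-sided exact permutation test, so this sum was not tested. By group means the highest of the 4 groups was DCIS.COM pLOC-empty for 46 members and MCF10A pLOC-*MALINC1* for 29, and the lowest was DCIS.COM pLOC-*MALINC1* for 38 and MCF10A pLOC-empty for 37. Among all genes these groups were highest for 23.9% and 22.5% and lowest for 24.2% and 28.8%.

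**Figure D1:**
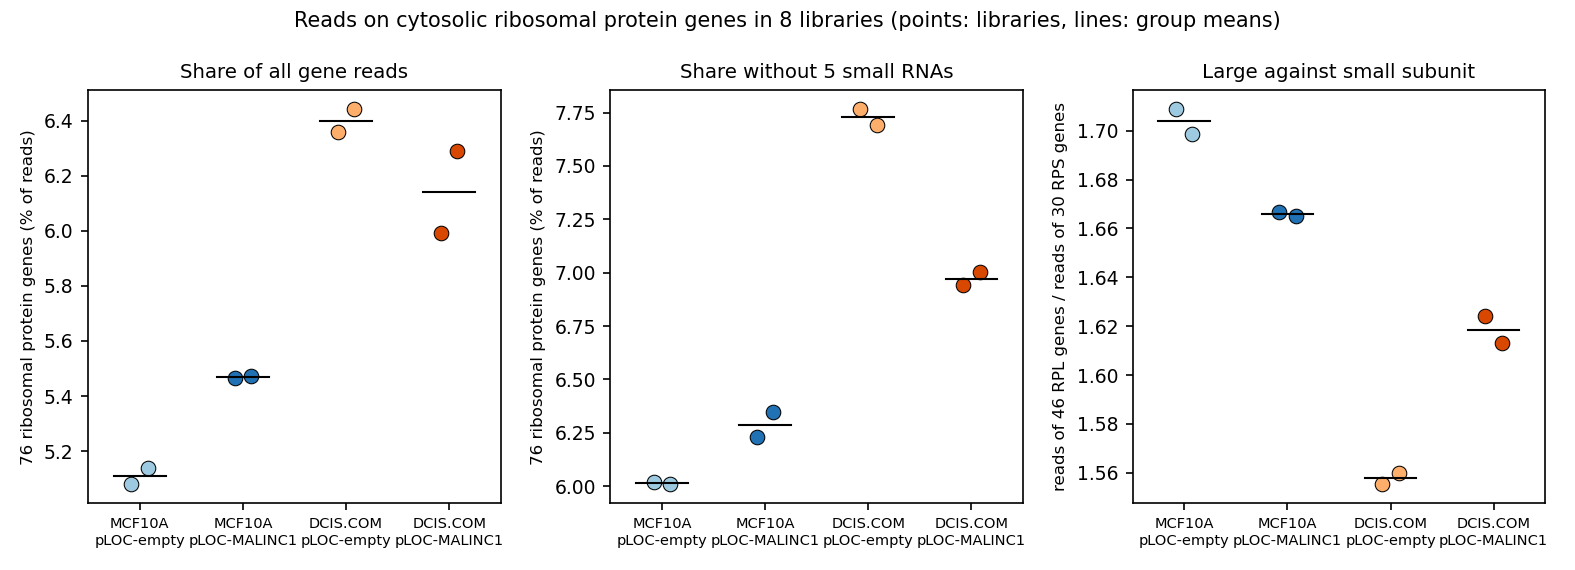
Reads of the 76 cytosolic ribosomal protein genes as a percentage of all reads on genes (left), the same percentage with 5 small non-polyadenylated RNAs taken out of the total (middle), and reads of large subunit genes divided by reads of small subunit genes (right), each axis starting above 0. Points are libraries and lines group means: the share runs from 5.08% to 6.44%, and without the small RNAs DCIS.COM pLOC-empty stands highest at 7.69% and 7.77%.

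A small set of abundant non-polyadenylated RNAs, *RN7SL1*, *RN7SL2*, *RN7SK*, *RPPH1* and *RMRP*, took 10.2% to 18.1% of the reads of a library and moved with the groups, from 15.1% ± 0.775 to 13.0% ± 1.05 in MCF10A and from 17.2% ± 1.32 to 11.9% ± 2.49 in DCIS.COM. With these RNAs taken out of the total, the members' share was 6.01% ± 0.00686 with the empty and 6.29% ± 0.0814 with the *MALINC1* vector in MCF10A, and 7.73% ± 0.0522 and 6.97% ± 0.0416 in DCIS.COM. The order of the groups stayed, and the gap in DCIS.COM became the wider of the pair.

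Reads were also summed by subunit, over 46 large and 30 small subunit genes. The sums are not corrected for gene number or transcript length, so their ratio does not measure a balance of the subunits and only its differences between groups are described. Large subunit genes had 1.71 and 1.70 times the reads of small subunit genes in the MCF10A pLOC-empty libraries and 1.67 times in both MCF10A pLOC-*MALINC1* libraries. In DCIS.COM the ratio was 1.56 in both pLOC-empty libraries and 1.62 and 1.61 with pLOC-*MALINC1*. It was thus lowest in DCIS.COM pLOC-empty, where the module as a whole was highest.

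In terms of reads, *RPL4* was the most abundant member, with a mean of 2243 CPM over all libraries, followed by *RPLP0* (2042 CPM), which anchors the stalk that calls translation factors to the ribosome, and *RPS2* (1623 CPM), a protein of the channel through which mRNA enters. The least abundant were *RPS28* (211 CPM), *RPS21* (216 CPM) and *RPL22* (226 CPM). Levels of different genes can be compared only per length, and the length depends on the transcript model: per kilobase of the reference transcript and per kilobase of coding sequence, the 76 log2 levels had a Pearson correlation of 0.40 across genes. By both measures *RPL41*, which encodes the smallest protein of the ribosome, *RPS18* and *RPLP0* were among the 9 highest (ranks 2, 1 and 3 per kilobase of transcript, 1, 4 and 9 per coding kilobase), and *RPL22* and *RPL28* were among the 4 lowest.

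The first comparison asked what *MALINC1* overexpression did in normal breast cells. In MCF10A, 36 of the 76 members were called higher and 0 lower with pLOC-*MALINC1*, beside 21.5% and 18.1% of all genes tested. The rises were small: the largest, of *RPS29*, was 0.26 on the log2 scale, or 1.20-fold, and none of the members passed 2-fold, where 5.50% of all genes did. The median log2 fold change was 0.12 over the members and 0.00 over all genes. Every pLOC-*MALINC1* library was higher than every pLOC-empty library for 68 members, lower for 1 (*RPLP0*) and overlapping for 7, where 38.8% and 37.7% of all genes did not overlap in these directions. Of the large subunit genes 22 of 46 were called, with a median of 0.11, and of the small subunit genes 14 of 30, with a median of 0.13.

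The count of 36 rests on the model of the variance, on the libraries and on the scaling. It was 5 without a trend in the variance and 8 with the 2 groups of the line fitted alone. It was also lower with any of the MCF10A libraries left out, in fits that leave a group with a lone library. Why it was lower was not tested, and the members' median stayed above 0 in these fits. Under 4 other scalings the count lay between 16 and 21, among them 19 with the small non-polyadenylated RNAs out of the totals. Under all of them 60 members were above 0. The 21.5% of all genes called higher belongs to the main fit, and the shares under these settings are not given here. Whether members were still called more often than all genes can thus not be read from these counts.

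*RPS29*, at chr14:50037702-50065882 on the minus strand of GRCh37, encodes a zinc-binding protein of the small subunit head. In MCF10A it had 207 and 200 CPM with pLOC-empty and 235 and 253 CPM with pLOC-*MALINC1*, which is 0.26 on the log2 scale (standard error 0.042, adjusted p = 0.000226). *RPL27*, a large subunit protein, had 420 and 428 CPM against 499 and 516 CPM (0.26, standard error 0.033, adjusted p = 3.78e-05). The groups lay apart for both. *RPLP2*, a protein of the acidic stalk, had 394 and 400 CPM against 460 and 479 CPM (0.24, standard error 0.033, adjusted p = 5.72e-05). For *RPS12*, whose product sits at the beak of the small subunit, the values were 739 and 741 CPM against 858 and 869 CPM (0.22, standard error 0.030, adjusted p = 6.65e-05), and for *RPS21* 217 and 214 CPM against 246 and 256 CPM (0.22, standard error 0.032, adjusted p = 0.000136). In all 5 genes the lower *MALINC1* library was above the higher control library.

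Among members without a call in MCF10A, *RPLP0* had 2062 and 2050 CPM with pLOC-empty and 1952 and 2005 CPM with pLOC-*MALINC1* (-0.06, standard error 0.036, adjusted p = 0.214). *RPL22*, a protein on the outer face of the large subunit, had 208 and 221 CPM against 221 and 215 CPM (0.03, standard error 0.039, adjusted p = 0.606), and *RPL3*, which reaches to the peptidyl transferase centre, 1330 and 1317 CPM against 1321 and 1357 CPM (0.02, standard error 0.034, adjusted p = 0.709). The libraries of *RPL22* and *RPL3* overlapped. Across the 76 genes, the change in MCF10A was related to the log2 coding length with a Pearson correlation of -0.27 (Spearman -0.32). Members share libraries and depth, so this is a description of the gene set.

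The same comparison in the carcinoma in situ line went the other way. In DCIS.COM, 47 members were called lower and 0 higher with pLOC-*MALINC1*, beside 16.7% and 16.4% of all genes. The median log2 fold change was -0.17 over the members and 0.01 over all genes. Every *MALINC1* library was lower for 69 members and higher for 4 (*RPL26*, *RPL38*, *RPL35* and *RPL36*), and the libraries overlapped for 3, *RPS2* and *RPL23* among them. Among all genes, 35.4% were lower and 37.7% higher without overlap. Of the small subunit genes 20 of 30 were called, with a median of -0.23, and of the large subunit genes 27 of 46, with a median of -0.15. None passed 2-fold, where 4.53% of all genes did.

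This count was 29 without a trend in the variance and 30 with the 2 groups of the line fitted alone. With each library left out in turn it was 36 to 47, and with the small non-polyadenylated RNAs out of the totals 42. With plain library totals in place of the normalized ones, 18 members were called lower and 2 higher, and the median of all genes moved to 0.13 and that of the members to -0.06. Under that and 3 other scalings 48 members stayed below 0 and 3 above. The shares of all genes called under these settings are not given here either.

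*RPL22*, at chr1:6245080-6269449 on the minus strand of GRCh37, fell most. It had 276 and 292 CPM with pLOC-empty and 186 and 187 CPM with pLOC-*MALINC1* in DCIS.COM, or -0.61 on the log2 scale (standard error 0.039, adjusted p = 1.14e-07), 1.52-fold lower. *RPS16*, whose tail reaches the tRNA in the P site, had 401 and 409 CPM against 315 and 268 CPM (-0.48, standard error 0.058, adjusted p = 2.79e-05). The gap between its *MALINC1* replicates was the widest of any member within a group, 0.23 on the log2 scale. *RPS29* had 440 and 463 CPM against 335 and 322 CPM (-0.46, standard error 0.042, adjusted p = 2.69e-06), so that it was called in opposite directions in the lines.

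Other large falls in DCIS.COM were spread over both subunits. *RPS3A*, which lies where the mRNA leaves the small subunit, had 1363 and 1350 CPM against 982 and 1031 CPM (-0.43, standard error 0.044, adjusted p = 6.33e-06). *RPS19*, a subunit head protein that is the gene most often mutated in Diamond-Blackfan anaemia, had 590 and 576 CPM against 427 and 441 CPM (-0.43, standard error 0.037, adjusted p = 1.84e-06). For *RPL3* the values were 1635 and 1644 CPM against 1225 and 1237 CPM (-0.41, standard error 0.034, adjusted p = 9.23e-07). No library of either vector overlapped in these genes. *RPS12* fell from 811 and 801 CPM to 617 and 607 CPM (-0.40, standard error 0.030, adjusted p = 5.74e-07), and *RPS13*, a protein at the bridge between the subunits, from 403 and 393 CPM to 306 and 310 CPM (-0.37, standard error 0.033, adjusted p = 1.93e-06).

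At the other end, *RPL26*, whose product lies at the exit of the nascent peptide tunnel, had 709 and 708 CPM with pLOC-empty and 715 and 709 CPM with pLOC-*MALINC1* (0.01, standard error 0.032, adjusted p = 0.876). *RPL38*, a large subunit protein known for its part in Hox mRNA translation, had 567 and 541 CPM against 577 and 585 CPM (0.07, standard error 0.037, adjusted p = 0.148), *RPL35* 551 and 533 CPM against 574 and 580 CPM (0.09, standard error 0.031, adjusted p = 0.0338) and *RPL36* 424 and 417 CPM against 424 and 432 CPM (0.03, standard error 0.041, adjusted p = 0.621). None of these genes was called, and *RPL35* and *RPL36* are named here after their values were seen.

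**Figure D2:**
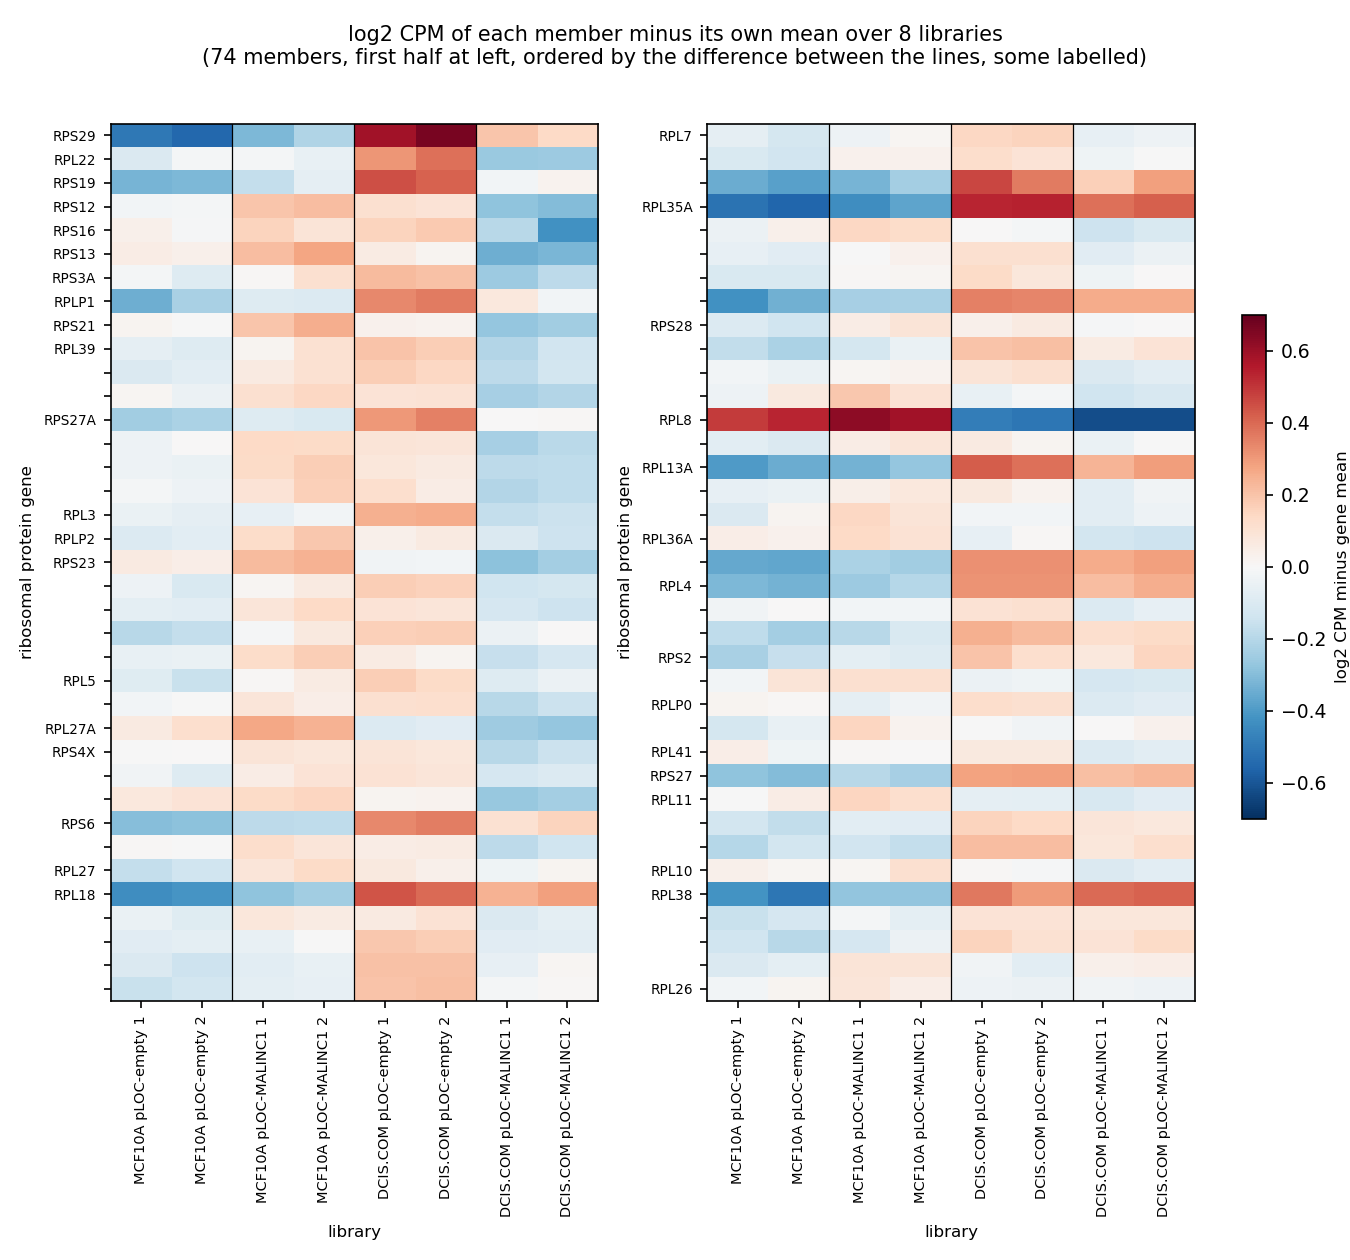
Heat map of 74 of the 76 members in 8 libraries, some of them labelled; colour is the log2 CPM of a gene minus its mean over the 8 libraries, with genes ordered from the most negative difference of the lines' responses (*RPS29*, -0.72) to the least (*RPL26*, -0.06). Replicates carry near-equal colours, MCF10A turns from blue towards red with pLOC-*MALINC1* and DCIS.COM from red towards blue, and *RPL8* alone runs deep red in MCF10A and deep blue in DCIS.COM.

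Whether the lines responded differently was tested in the same fit. The change was lower in DCIS.COM than in MCF10A for all 76 members by value, against 50.6% of all genes, and 57 members were called lower and 0 higher, beside 20.3% and 15.6% of all genes. The median difference was -0.28 over the members and -0.01 over all genes. By value 69 members were above 0 in MCF10A and below 0 in DCIS.COM, where 23.4% of all genes were, and 25 were called in both directions, where 4.20% of all genes were. Under 4 other scalings 63 members stayed below 0. None of the members passed 2-fold in this difference, where 9.20% of all genes did. The count of 57 was 25 with plain library totals and 37 without a trend in the variance, without the shares of all genes under these settings. The count of members called in both directions is from the main fit and is not given under these settings. It cannot pass the count of rises in MCF10A, which was below 25 under both.

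The 25 members called in both directions comprised 14 large and 11 small subunit genes, with changes of 0.13 to 0.26 in MCF10A and of -0.46 to -0.13 in DCIS.COM. Another 11 were called higher in MCF10A without a call in DCIS.COM, *RPL27*, *RPL38* and *RPS28* among them, and 22 were called lower in DCIS.COM without a call in MCF10A, *RPL22*, *RPL3*, *RPS3A* and *RPS16* among them. The remaining 18 were called in neither line, including *RPL4*, *RPL10*, *RPL11*, *RPL26* and *RPS2*. For the classes of 11, 22 and 18 members the shares of all genes are not given. Whether members fell into them more often than all genes can thus not be read from these counts. The largest differences were those of *RPS29* (-0.72, standard error 0.059, adjusted p = 9.88e-07), *RPL22* (-0.63, adjusted p = 1.58e-06), *RPS19* (-0.63, adjusted p = 1.15e-06), *RPS12* (-0.62, adjusted p = 2.16e-07) and *RPS16* (-0.59, adjusted p = 8.36e-05). Across the 76 genes the change in MCF10A and that in DCIS.COM were nearly unrelated (Pearson correlation -0.04, Spearman -0.08).

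**Figure D3:**
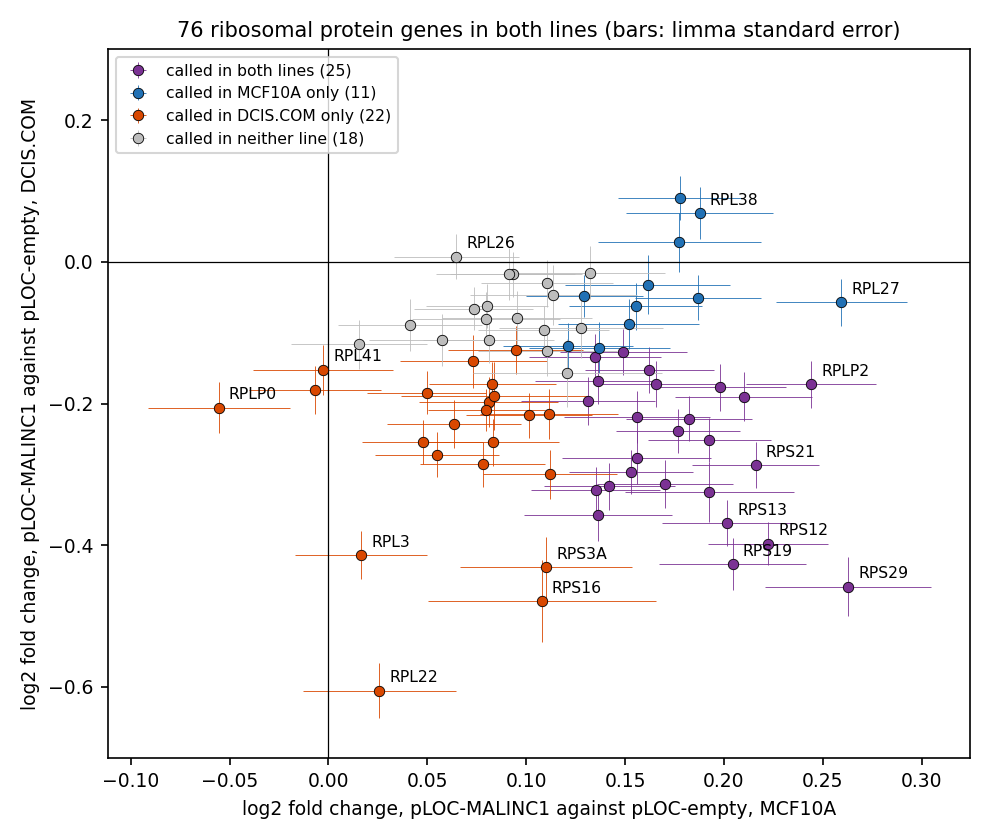
Log2 change with pLOC-*MALINC1* over pLOC-empty in MCF10A (x axis) and in DCIS.COM (y axis) for the 76 members, with limma standard errors as bars and colours for the lines in which a member was called. Most points lie at right below 0, *RPL22* lies lowest at 0.03 and -0.61, *RPS29* farthest right at 0.26 and -0.46, and *RPL26* at 0.06 and 0.01.

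By place in the ribosome, the acidic stalk comes first, the arm that recruits the translation factors. Of its genes, *RPLP1* had 532 and 576 CPM against 634 and 631 CPM in MCF10A (0.19, adjusted p = 0.0024) and 851 and 869 CPM against 709 and 665 CPM in DCIS.COM (-0.32, adjusted p = 5.83e-05). *RPLP2* fell by 0.17 in DCIS.COM, from 431 and 439 CPM to 391 and 381 CPM, and *RPLP0* by 0.21, from 2221 and 2205 CPM to 1910 and 1927 CPM. All 3 stalk genes were thus lower with *MALINC1* in DCIS.COM, and *RPLP1* and *RPLP2* were higher with it in MCF10A.

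The partners of the 5S ribosomal RNA, *RPL5* and *RPL11*, bind MDM2 when they are not built into ribosomes and so link ribosome production to p53. *RPL5* had 771 and 733 CPM against 824 and 852 CPM in MCF10A (0.16, adjusted p = 0.00371) and 921 and 899 CPM against 768 and 796 CPM in DCIS.COM (-0.22, adjusted p = 0.000424). *RPL11* had 731 and 760 CPM against 814 and 795 CPM in MCF10A (0.11, adjusted p = 0.0143) and 703 and 700 CPM against 679 and 695 CPM in DCIS.COM (-0.03, adjusted p = 0.486), and was called in neither line. The difference of the responses was -0.37 for *RPL5* (adjusted p = 8.81e-05) and -0.14 for *RPL11* (adjusted p = 0.0257).

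Around the peptide exit tunnel 4 of 9 genes rose in MCF10A and 4 fell in DCIS.COM. Along the mRNA path and the decoding centre the counts were 2 and 4 of 7, and at the bridges between the subunits 4 and 4 of 6. Of the 11 genes mutated in Diamond-Blackfan anaemia, an inherited failure of red cell production, 6 rose in MCF10A and 5 fell in DCIS.COM. Of all genes 21.5% were called as rises in MCF10A and 16.7% as falls in DCIS.COM, and the count for the mRNA path in MCF10A lies near that share. The medians of these 4 lists were 0.11 to 0.13 in MCF10A and -0.19 to -0.09 in DCIS.COM.

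*RPS6*, the substrate of the S6 kinases, had 1257 and 1263 CPM against 1359 and 1363 CPM in MCF10A (0.11, adjusted p = 0.017) and 1945 and 1976 CPM against 1661 and 1718 CPM in DCIS.COM (-0.21, adjusted p = 0.000296). *RPS27A*, which encodes a ribosomal protein fused to ubiquitin, had 805 and 817 CPM against 897 and 884 CPM (0.14, adjusted p = 0.00408) and 1176 and 1216 CPM against 957 CPM in both libraries (-0.32, adjusted p = 6.59e-06). *RPL39*, in the exit tunnel, rose by 0.14 in MCF10A (adjusted p = 0.00869) and fell by 0.36 in DCIS.COM (adjusted p = 8.63e-06). The X-linked *RPS4X* had 1226 and 1228 CPM against 1306 and 1294 CPM in MCF10A (0.08, adjusted p = 0.0503) and 1304 and 1297 CPM against 1073 and 1107 CPM in DCIS.COM (-0.25, adjusted p = 5.14e-05).

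Of the ribosomal proteins that the naming rule leaves out, 3 are described. *RACK1*, a signalling scaffold on the small subunit, had 644 and 646 CPM against 726 and 751 CPM in MCF10A (0.20, adjusted p = 0.000317) and 1316 and 1293 CPM against 1117 and 1131 CPM in DCIS.COM (-0.21, adjusted p = 0.000187). *FAU*, which encodes a ubiquitin-like fusion of a small subunit protein, rose by 0.19 and fell by 0.15, and *RPSA*, also a laminin receptor, had 0.11 (adjusted p = 0.0302) and fell by 0.27. So *RACK1* and *FAU* rose in MCF10A, and these 3 genes fell in DCIS.COM.

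The paralogs, which can stand in for a core protein in some tissues, did not move as a block. *RPL22L1*, the paralog of *RPL22*, had 190 and 201 CPM against 230 and 242 CPM in MCF10A (0.27, adjusted p = 0.000128) and 161 and 162 CPM against 189 and 199 CPM in DCIS.COM (0.26, adjusted p = 0.000186). It was thus higher with *MALINC1* in both lines, while its parent *RPL22* was called in DCIS.COM alone, and lower there. *RPS27L*, a p53 target, fell in both lines, from 102 and 96.0 CPM to 74.0 and 73.2 CPM (-0.43, adjusted p = 2.07e-06) and from 112 and 114 CPM to 78.2 and 79.6 CPM (-0.51, adjusted p = 5.30e-07), while its parent *RPS27* had changes of 0.08 and -0.06 and no call. *RPL7L1* rose by 0.52 in MCF10A and *RPL39L* fell by 0.26 there, with no call in DCIS.COM. Reads from near-identical stretches of paralogs and from the many processed pseudogenes of these genes may be assigned to either, so these values carry that uncertainty. The table listed 13 ribosomal protein pseudogenes, the highest at 206 CPM.

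Most ribosome assembly factors rose in both lines. Of 47 ribosome biogenesis factors, 45 were called higher in MCF10A and 35 in DCIS.COM, with 0 called lower in either line and medians of 0.63 and 0.25. Of 15 genes of RNA polymerase I and its factors, 11 were called higher in MCF10A, and in DCIS.COM 7 were called higher and 1 lower, with medians of 0.44 and 0.22. Over the alternatives run, the median of the biogenesis factors in DCIS.COM lay between 0.22 and 0.36 and their called rises between 16 and 42. For these and the lists that follow, 21.5% of all genes were called higher and 18.1% lower in MCF10A, and 16.4% and 16.7% in DCIS.COM. These lists were put together with earlier results of these data known, and the counts are descriptions.

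*UTP20*, a component of the small subunit processome, had 87.7 and 86.3 CPM with pLOC-empty and 204 and 216 CPM with pLOC-*MALINC1* in DCIS.COM (1.27, standard error 0.044, adjusted p = 5.08e-10), the largest rise of that list. *POLR1B*, a core subunit of RNA polymerase I, had 42.3 and 39.3 CPM against 82.5 and 83.8 CPM in MCF10A (1.03, standard error 0.049, adjusted p = 7.49e-09) and 67.0 and 62.7 CPM against 80.9 and 77.3 CPM in DCIS.COM (0.29, adjusted p = 0.000434). *RRP9*, which binds the U3 snoRNA, rose by 1.01 and by 0.51. In DCIS.COM these genes rose while 47 ribosomal protein genes fell.

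Of 20 translation factors and other genes with TOP mRNAs, 16 were called lower and 0 higher in DCIS.COM (median -0.21). In MCF10A 8 were called higher and 2 lower (median 0.09). *EEF1A1*, the elongation factor that brings tRNAs to the ribosome, had 9095 and 9128 CPM against 7245 and 7491 CPM in DCIS.COM (-0.31, adjusted p = 0.000488). *NPM1*, a nucleolar chaperone, had 1111 and 1119 CPM against 1577 and 1588 CPM in MCF10A (0.51, adjusted p = 1.73e-07) and 2663 and 2629 CPM against 2244 and 2279 CPM in DCIS.COM (-0.23, adjusted p = 0.000188), although the sign in DCIS.COM turned with quantile normalization, to 0.04.

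Of 14 genes that host small nucleolar RNAs in their introns, 9 were called higher in MCF10A and 0 lower (median 0.40), and in DCIS.COM 9 were called lower and 1 higher (median -0.40). *GAS5*, a non-coding host known as a TOP RNA, had 50.5 and 47.2 CPM against 54.8 and 65.9 CPM in MCF10A (0.30, adjusted p = 0.00373) and 175 and 171 CPM against 120 and 111 CPM in DCIS.COM (-0.59, adjusted p = 3.01e-05). Its listed start showed no pyrimidine run, and a run was found for 4 of the 12 matched host genes. *SNHG16* had 188 and 193 CPM against 263 and 280 CPM (0.51, adjusted p = 1.61e-07) and 525 and 519 CPM against 399 CPM in both libraries (-0.39, adjusted p = 2.17e-06). Several members host snoRNAs as well, and the setting for strand in the read counting is not given in the sources used here, so reads of overlapping transcripts cannot be told apart.

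**Figure D4:**
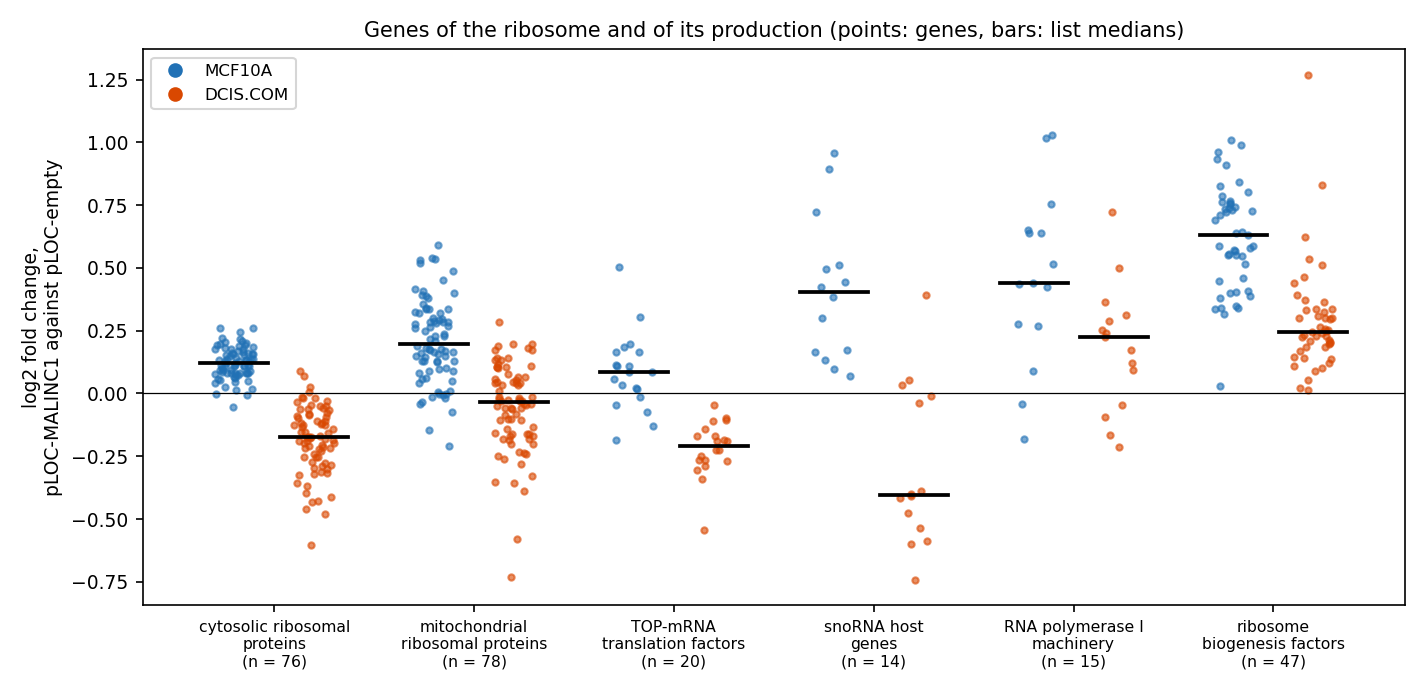
Log2 change with pLOC-*MALINC1* over pLOC-empty for single genes (points) and the median of each list (bars), in MCF10A (blue) and DCIS.COM (orange). The cytosolic ribosomal proteins form a tight cloud, with medians of 0.12 and -0.17. The medians of the TOP-mRNA translation factors and snoRNA host genes lie on the same sides of 0. Of single genes, 5 TOP-mRNA genes lie below 0 in MCF10A and 3 snoRNA host genes above 0 in DCIS.COM. The ribosome biogenesis factors lie above 0 in both lines (medians 0.63 and 0.25).

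Of the 78 mitochondrial ribosomal protein genes, whose products translate the mitochondrial mRNAs, 42 were called higher and 0 lower in MCF10A (median 0.20), beside 21.5% and 18.1% of all genes. In DCIS.COM 3 were called higher and 13 lower (median -0.04), beside 16.4% and 16.7% of all genes, so the count of falls there is at the level of all genes. *MRPL15*, for example, rose by 0.41 in MCF10A (adjusted p = 0.00043) and had -0.11 in DCIS.COM (adjusted p = 0.25). Their summed level was 2981 ± 7.10 CPM against 3475 ± 67.4 CPM in MCF10A and 4113 ± 57.3 CPM against 4012 ± 60.3 CPM in DCIS.COM. For the cytosolic members the sums were 53324 ± 75.05 and 57552 ± 515 CPM in MCF10A and 63608 ± 351 and 56266 ± 796 CPM in DCIS.COM. In bulk RNA, less RNA per cell and fewer cells that hold it cannot be told apart, and neither could a change in the rest of the RNA.

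The listed starts were then set beside the changes. The 45 members with the run had a median log2 fold change of 0.13 in MCF10A and the 16 without it also of 0.13, and in DCIS.COM the medians were -0.19 and -0.12. In DCIS.COM 31 of 45 and 7 of 16 were called, all lower, beside 33.2% of all genes in either direction and 16.7% called lower. In MCF10A 23 of 45 and 9 of 16 were called, all higher, beside 39.6% of all genes in either direction and 21.5% called higher. *RPS29* and *RPL27*, printed above with no capitals, had the largest rises in MCF10A, and *RPL22*, with a run of 7, had the largest fall in DCIS.COM.

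Of 21 regulators known to act on TOP mRNAs and on ribosome production, 10 were called higher and 6 lower in MCF10A and 9 higher and 3 lower in DCIS.COM. Of all genes 21.5% and 18.1% were called in these directions in MCF10A, and 16.4% and 16.7% in DCIS.COM. The count of falls in DCIS.COM lies near that share. *MYC* had 108 CPM in both pLOC-empty libraries and 238 and 254 CPM with pLOC-*MALINC1* in MCF10A (1.19, standard error 0.045, adjusted p = 9.81e-10), and 140 and 133 CPM against 183 and 170 CPM in DCIS.COM (0.37, adjusted p = 3.10e-05). *LARP1* had 197 and 196 CPM against 270 and 251 CPM in MCF10A (0.40, adjusted p = 2.56e-06) and 290 and 279 CPM against 311 and 310 CPM in DCIS.COM (0.12, adjusted p = 0.0169). *MTOR* had 53.8 and 55.8 CPM against 53.8 and 54.1 CPM in MCF10A (-0.02, adjusted p = 0.654) and 98.4 and 101 CPM against 112 and 117 CPM in DCIS.COM (0.20, adjusted p = 0.00146). What these mRNAs had to do with the members was not tested.

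The last comparison set the lines against each other within each vector. With pLOC-empty, 52 members were called higher in DCIS.COM and 2 lower, beside 37.9% and 36.0% of all genes, with a median log2 fold change of 0.19 against 0.03 over all genes. With pLOC-*MALINC1*, 20 were called higher and 35 lower, beside 35.7% and 37.2% of all genes, with a median of -0.09 against 0.01. Either way, 54 and 55 members were called, beside 73.9% and 73.0% of all genes. Libraries of the lines did not overlap for 62 higher and 9 lower members with pLOC-empty and for 24 higher and 48 lower with pLOC-*MALINC1* (46.6% and 43.5%, and 44.9% and 45.1%, of all genes). The median with pLOC-*MALINC1* turned its sign with the scaling, to 0.06 with quantile normalization, 0.09 with the small RNAs out of the totals and 0.11 with plain library totals. In the last pair the median of all genes moved to 0.19 and 0.20, above that of the members.

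In the line comparison 3 members passed 2-fold with pLOC-empty and 1 of them with pLOC-*MALINC1*, where 28.6% and 26.6% of all genes did. *RPS29* had 440 and 463 CPM in DCIS.COM against 207 and 200 CPM in MCF10A with pLOC-empty (1.15, standard error 0.042, adjusted p = 4.94e-11), and 335 and 322 CPM against 235 and 253 CPM with pLOC-*MALINC1* (0.43, adjusted p = 8.60e-07). *RPL35A*, a large subunit protein gene at chr3:197677061-197683481 on the plus strand of GRCh37, had 705 and 710 CPM against 340 and 332 CPM (1.07, standard error 0.033, adjusted p = 1.07e-11), and 636 and 653 CPM against 361 and 378 CPM (0.80, adjusted p = 2.01e-10). *RPL8*, which lies beside the peptidyl transferase centre in the large subunit, was lower in DCIS.COM, with 835 and 822 CPM in DCIS.COM against 1640 and 1692 CPM in MCF10A (-1.01, standard error 0.034, adjusted p = 2.45e-11), and 760 and 759 CPM against 1806 and 1753 CPM with pLOC-*MALINC1* (-1.23, standard error 0.034, adjusted p = 4.81e-12). These 3 genes kept their order in every library pair. With pLOC-empty *RPL8* lay at the edge of 2-fold, with -0.97 under quantile normalization and median of ratios scaling, -0.90 with the small RNAs out of the totals, -0.94 with plain totals and -0.99 without the second MCF10A pLOC-empty library, and its change was also just under 2-fold without the second DCIS.COM pLOC-empty library.

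Several other members were higher in DCIS.COM with both vectors. *RPL18*, a large subunit protein, had log2 fold changes of 0.84 and 0.53 and *RPL38* of 0.80 and 0.68. *RPS19* had 0.75 with pLOC-empty and 0.12 with pLOC-*MALINC1*, where its adjusted p was 0.0103. *RPL27A*, beside *RPL8* the other member called lower with pLOC-empty, had 637 and 644 CPM against 711 and 738 CPM (-0.18, adjusted p = 0.000221) and 572 and 565 CPM against 819 and 806 CPM with pLOC-*MALINC1* (-0.52, adjusted p = 1.02e-08). *RPS13* had -0.01 (adjusted p = 0.871) with pLOC-empty and -0.58 (adjusted p = 3.97e-09) with pLOC-*MALINC1*.

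Position in the genome was compared with these line differences. For each member the median log2 fold change with pLOC-empty was taken over the other genes of the table within 1 Mb in GRCh37. Over the 74 members with at least 5 such neighbours, the member's own change followed that of its neighbours with a Spearman correlation of 0.49 (Pearson 0.46), as a description across genes, some of which share neighbours. *RPL8*, near the end of the long arm of chromosome 8, had 39 neighbours with a median of -0.78 and quartiles of -1.10 and -0.41. *RPL18*, *RPL13A* and *RPS19*, all on chromosome 19, had neighbour medians of 0.50, 0.61 and 0.45. *RPL35A* stood at 1.07 among 11 neighbours with a median of -0.42, and *RPS29* at 1.15 among 16 neighbours on chromosome 14 with a median of 0.18. Copy number was not measured here.

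**Figure D5:**
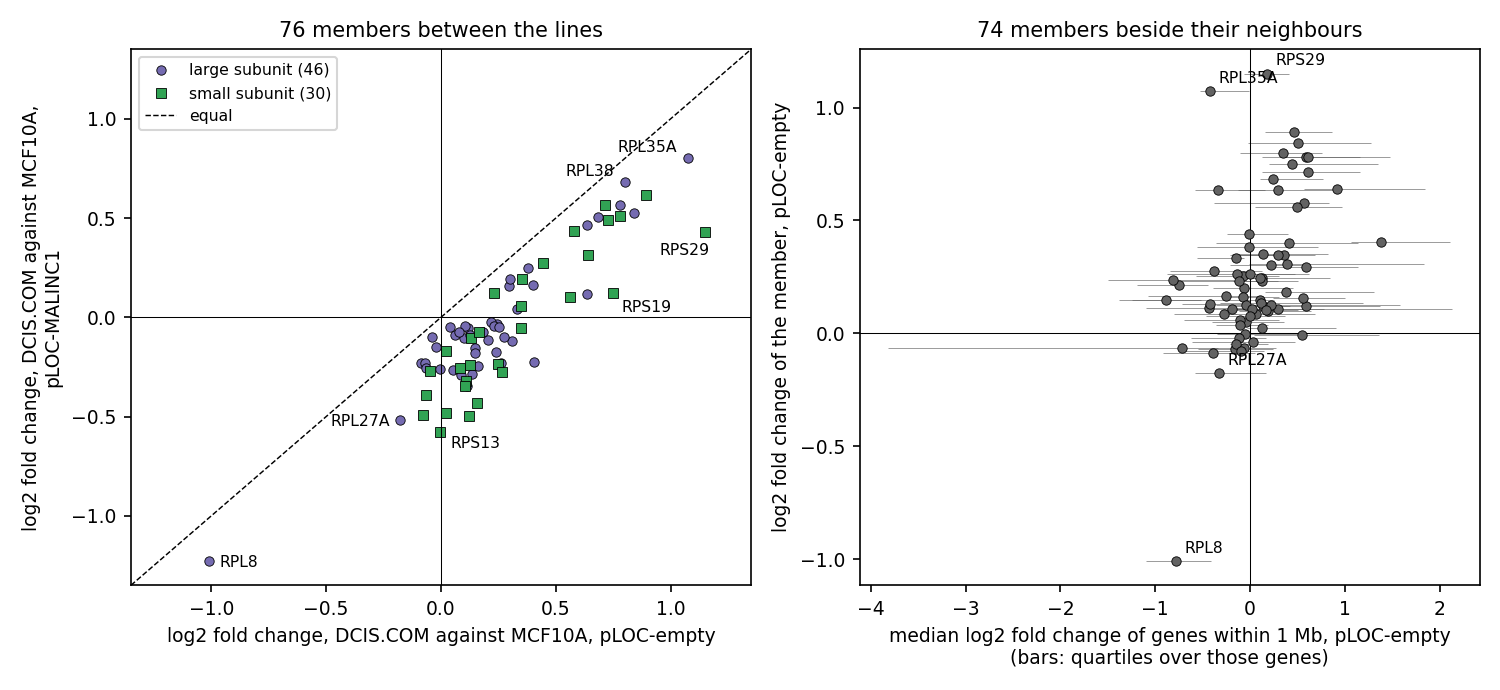
Left, log2 fold change of each member between DCIS.COM and MCF10A with pLOC-empty (x axis) and with pLOC-*MALINC1* (y axis), with a dashed line of equal change. Right, the same change with pLOC-empty (y axis) against the median of the genes within 1 Mb (x axis, bars for their quartiles) for 74 members. All points at left lie below the dashed line, as every difference of the responses was below 0, and *RPL8* stands alone at -1.01 and -1.23.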

How the data were processed

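The authors sequenced ScriptSeq v2 libraries of total RNA as 76 nt paired-end reads, aligned them to hg19 with Rsubread, counted UCSC known genes with featureCounts and deposited log2 CPM from edgeR. The values are log2 counts per 1000000 reads (CPM) against normalized library sizes, with a prior count of 2 reads scaled by library size. The gene filter, the strand setting and the versions are not given in the sources used here. Small RNAs without poly(A) tails were part of the totals.

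All 13842 genes of the table, of which 346 had no symbol, were fitted with limma 3.58.1 (R 4.3.3) on the deposited log2 values: 4 group means, empirical Bayes with a trend, 5 contrasts and Benjamini-Hochberg adjustment over all genes. Here, too, genes needed 0.5 CPM in 2 libraries, which each gene had. A call is an adjusted p below 0.01. CPM printed are 2 to the power of the deposited value, prior included. The values of 100% of the cells were whole reads within 0.05 once the prior was taken off, and these reads gave the totals, the shares and counting errors with a median of 0.729% over the members. This precision covers counting error alone. Other steps used Python 3.11.15, pandas 2.3.3, scipy 1.17.1 and matplotlib 3.10.9, and the fit was tested on simulated data. Transcript models came from GENCODE in GRCh37 and start sequences from RefSeq.

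The members, the other gene lists and the tests were chosen with earlier results of these data known. Named genes are the 5 members that rose and the 5 that fell most among those called in each contrast, those past 2-fold, the stalk and 5S RNA partners with a few other well-known members, the 3 highest and 3 lowest by mean CPM, the ribosomal proteins outside the rule, the paralogs with their parents, and in other lists up to 3 genes a contrast past 2-fold, with *MYC* and *LARP1*. *RPL35*, *RPL36* and *EEF1A1* fall outside this rule and were picked after their values were seen. Alternatives were a pseudocount of 1 CPM, a filter of 5 CPM or none, quantile normalization, median of ratios scaling, totals without small RNAs, limma-voom on the recovered reads, no variance trend, 2 groups fitted alone, the replicate number as a block, a threshold of 0.05 and each library left out. Plain library totals and a block with crossed numbers were added after seeing the data. Single values of a few genes are not reported here.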

Additional observations from a re-analysis of the deposited data

Results flagged for a closer look

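The response to *MALINC1* differed between the lines by a test of the difference itself for 57 of the 76 members, each time lower in DCIS.COM (limma, adjusted p below 0.01). The difference of the log2 fold changes was largest for *RPS29* (-0.72), *RPL22* (-0.63), *RPS19* (-0.63), *RPS12* (-0.62) and *RPS16* (-0.59). It was -0.57 for *RPS13*, -0.54 for *RPS3A*, -0.52 for *RPLP1*, -0.50 for *RPS21*, -0.49 for *RPL39* and -0.46 for *RPS27A*. *RPL3* had -0.43, *RPL5* -0.37 and both *RPLP2* and *RPS23* -0.42. Between -0.34 and -0.31 lay *RPL27A* (-0.34), *RPS4X* (-0.34), *RPS6* (-0.33), *RPL27* (-0.32) and *RPL18* (-0.31). The smallest named differences past the threshold were those of *RPL7* (-0.28), *RPL35A* (-0.27), *RPS28* (-0.24), *RPL8* (-0.22), *RPL13A* (-0.21) and *RPL36A* (-0.19). For *RPL13A* the sign turned with quantile normalization, to 0.027.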

How the results depend on the processing

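The direction of the members' median held under every alternative run within each line, for the difference and for the lines with pLOC-empty, and turned for the lines with pLOC-*MALINC1*. In MCF10A the 36 rises became 20 with quantile normalization, which also gave 2 falls, 21 with median of ratios scaling, 19 with totals without small RNAs, 16 with plain library totals, 5 without the variance trend and 8 with the line fitted alone, with medians of 0.057, 0.080 and 0.075 under the first 3 of these. Leaving out each library gave 18 to 36. In DCIS.COM the 47 falls became 18 with plain totals, 29 without the trend and 30 with the line fitted alone, and 36 to 47 with a library left out. There 1 member rose at a threshold of 0.05, with quantile normalization and with totals without small RNAs, and 2 with plain totals, and the median was -0.12 with quantile normalization, -0.14 with totals without small RNAs and -0.055 with plain totals. Between the lines with pLOC-empty the 2 falls became 4 at a threshold of 0.05 and 1 both with totals without small RNAs and with plain totals, and the median was 0.28 with quantile normalization, 0.23 with median of ratios scaling, 0.30 with totals without small RNAs, 0.26 with plain totals and 0.18 to 0.20 with a library left out. With pLOC-*MALINC1* the 20 rises and 35 falls became 32 and 18 with quantile normalization, 35 and 13 with totals without small RNAs and 31 and 11 with plain totals, and the median of -0.09 became 0.062, 0.087 and 0.11, and -0.027 with median of ratios scaling. For the difference, quantile normalization gave 1 rise and a median of -0.18, totals without small RNAs a median of -0.20, plain totals 25 falls and a median of -0.15, and the fit without the trend 37 falls. The shares of reads with the small RNAs out of the total were 6.01%, 6.29%, 7.73% and 6.97%. The cause of these shifts was not tested. Counts of called members in this section stand without the shares of all genes called under the same settings, so an excess over all genes cannot be read from them.

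Single genes whose sign turned lay mostly in the comparison of the lines with pLOC-*MALINC1*. With quantile normalization *RPL3* had 0.19 (limma, adjusted p = 0.000193), *RPSA* 0.19 (limma, adjusted p = 0.000159), *RPL27* 0.049, *RPS3A* 0.041, *RPS4X* 0.043 and *FAU* 0.0037. With totals without small RNAs and with plain totals *FAU* had 0.073 and 0.091, *RPL27* 0.068 and 0.086, *RPL3* 0.060 and 0.078, *RPSA* 0.049 and 0.067 and *RPL10* 0.030 and 0.048. The signs of *NPM1* in DCIS.COM (0.042) and of the difference for *RPL13A* (0.027) turned with quantile normalization. Limma-voom on the recovered reads called 48 rises in MCF10A and 52 falls in DCIS.COM. Deviations of same-numbered libraries from their group means correlated at -0.13 in MCF10A and 0.12 in DCIS.COM over 9489 genes. With 2 libraries a group this cannot decide whether the numbers paired them, and the labels do not say so. With the replicate block 33 members were called in MCF10A, 44 in DCIS.COM and 55 for the difference, and with the numbers crossed in MCF10A 41, 52 and 60.

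With 2 libraries a group the spread rests on all 8, the unknown use of strand and the near-identical pseudogenes limit values of single genes, and shares of reads depend on RNAs that poly(A) selection would have removed.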

Other observations

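Genes of p53 and ribosome surveillance, which respond when ribosome assembly is disturbed, differed between the lines as well. Of 10, 5 were called higher and 2 lower in MCF10A (median log2 fold change 0.25), and 1 higher and 8 lower in DCIS.COM (median -0.33). Of all genes 21.5% and 18.1% were called in these directions in MCF10A, and 16.4% and 16.7% in DCIS.COM. The falls in MCF10A and the rise in DCIS.COM are thus no more than all genes would give. *CDKN1A*, which encodes the cell cycle inhibitor p21, had 129 and 130 CPM with pLOC-empty and 207 and 210 CPM with pLOC-*MALINC1* in MCF10A (0.69, limma, adjusted p = 6.94e-09). In DCIS.COM it had 211 and 203 CPM against 165 and 167 CPM (-0.32, limma, adjusted p = 7.04e-06). *GDF15*, a stress-induced cytokine, had 3.38 and 4.19 CPM against 7.65 and 6.61 CPM in MCF10A (0.92, limma, adjusted p = 3.82e-05) and 27.5 and 29.0 CPM against 12.8 and 11.8 CPM in DCIS.COM (-1.20, limma, adjusted p = 4.84e-06). The libraries of the vectors lay apart for both genes in both lines, in opposite order. The difference between the lines' responses was -1.01 for *CDKN1A* and -2.12 for *GDF15*.

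Among 7 genes of the ribosomal S6 kinases, whose names share letters with the members but which encode kinases, 4 were called higher in MCF10A, and 1 higher and 2 lower in DCIS.COM. Of all genes 21.5% were called higher in MCF10A, and 16.4% higher and 16.7% lower in DCIS.COM. With so few genes, the counts in DCIS.COM lie near these shares. *RPS6KA2* had 32.8 and 33.9 CPM against 36.0 and 34.5 CPM in MCF10A (0.08, limma, adjusted p = 0.426) and 7.81 and 8.04 CPM against 4.003 and 4.39 CPM in DCIS.COM (-0.92, limma, adjusted p = 1.37e-06). *RPS6KA4* rose in both, by 0.39 (limma, adjusted p = 1.67e-05) and by 0.28 (limma, adjusted p = 0.000298).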
